A study of Mus musculus with 24 samples.

Results

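The intervals described here are the open-chromatin intervals that lie between genes but close to them. An interval was included when its midpoint fell outside every protein-coding gene body of the RefSeq GRCm38.p6 gene table and lay more than 1 kb and at most 50 kb from the nearest gene end. The rule uses position alone. In the table without inhibitor (Ctrl) it selected 79759 of 299780 intervals (26.6%), and in the table with inhibitor (Paused) 73461 of 272268 (27.0%). Of these near-gene intergenic intervals, 74836 and 70075 passed the filter on low values, a value of 10 or more in at least 4 libraries. The assay was ATAC-seq: a transposase cuts and tags accessible DNA, so that more reads mean more open chromatin. The cells were the mouse embryonic stem cell line E14, kept on gelatin with serum and leukemia inhibitory factor (LIF). Wild type (WT) cells were compared with cells that lack Smad2 (knockout, KO), of which there were 2 lines, Smad2_KO1 and Smad2_KO2. Ctrl cells had no inhibitor, and Paused cells had INK128, an inhibitor of mTOR, at 200 nM for 12 hours, so that there were 6 groups of 4 libraries, 24 in all. The labels do not say how the KO lines were derived, whether each is a single clone, or whether replicates came from separate cultures, so p-values measure the spread between these libraries only. Smad2 lies on chromosome 18, and ATAC-seq does not measure its product, so the genotype was not checked here.

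Open sites between genes include enhancers, the starts of non-coding RNAs and insulator sites, and an enhancer can act on a distant gene or skip the gene next to it. Smad2 carries the signal of Nodal and related ligands from the receptor to the nucleus, where with Smad4 and partners such as Foxh1 it binds enhancers of targets that include Nodal itself and its inhibitors Lefty1 and Lefty2. Inhibition of mTOR, a kinase that promotes growth and protein synthesis, puts embryonic stem cells into a slowed state that resembles the diapause of the early embryo. Genes named below are the nearest protein-coding genes by distance, which does not make them targets of an interval.

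No genome of the build was used, so sequences came from the RefSeq windows around gene starts (250 bases before to 50 after, GRCm38.p6), which include the starts of non-coding genes. Of the near-gene intervals, 267 in Ctrl and 263 in Paused lay wholly inside such a window, and 236 did so in both tables. Of the 236, 11 were called in both KO lines in both treatments, with no overlap between the 8 KO and the 4 WT libraries. Of these 11, 5 were more open and 6 less open in KO. The 6 sequences below are 3 of each kind, so they are not the full set. They are the 201 bases of the Ctrl interval on the + strand, in lower case, with matches to the 9 motifs searched in capitals. The first 3 were more open in KO and the last 3 less open in KO, and each name is the non-coding gene whose start window holds the interval.
Gm41048, near Rgs7bp, chr13:104914548-104914748: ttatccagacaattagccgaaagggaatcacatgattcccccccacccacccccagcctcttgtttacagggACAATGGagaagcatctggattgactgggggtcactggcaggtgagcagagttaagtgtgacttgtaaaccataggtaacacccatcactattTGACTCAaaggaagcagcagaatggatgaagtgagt
4930556L07Rik, near Psmf1, chr2:151751479-151751679: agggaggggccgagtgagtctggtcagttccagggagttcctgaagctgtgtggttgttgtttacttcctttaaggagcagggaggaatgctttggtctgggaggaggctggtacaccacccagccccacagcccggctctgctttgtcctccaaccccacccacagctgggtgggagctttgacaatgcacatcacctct
2500002B13Rik, near Hmgb2, chr8:57505626-57505826: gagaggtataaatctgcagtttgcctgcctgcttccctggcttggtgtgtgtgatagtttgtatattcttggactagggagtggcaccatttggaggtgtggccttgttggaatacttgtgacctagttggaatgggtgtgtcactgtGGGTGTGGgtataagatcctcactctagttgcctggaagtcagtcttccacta
Gm33224, near Pou2f1, chr1:166049071-166049271: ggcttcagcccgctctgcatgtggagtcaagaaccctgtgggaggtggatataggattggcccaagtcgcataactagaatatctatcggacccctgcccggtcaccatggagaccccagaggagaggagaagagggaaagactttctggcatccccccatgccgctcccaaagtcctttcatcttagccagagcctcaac
Gm52714, near Ttll10, chr4:156064031-156064231: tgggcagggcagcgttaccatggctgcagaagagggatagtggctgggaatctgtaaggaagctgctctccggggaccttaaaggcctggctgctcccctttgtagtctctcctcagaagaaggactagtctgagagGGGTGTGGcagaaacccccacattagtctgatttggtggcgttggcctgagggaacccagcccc
Gm5493, near Gm9805, chr17:22739869-22740069: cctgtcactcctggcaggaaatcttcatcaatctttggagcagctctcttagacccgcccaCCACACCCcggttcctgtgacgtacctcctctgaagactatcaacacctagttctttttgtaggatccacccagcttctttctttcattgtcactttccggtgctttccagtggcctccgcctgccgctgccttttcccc

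In capitals, Gm41048 shows the Sox letters ACAATGG and the AP-1 letters TGACTCA, 2500002B13Rik and Gm52714 show the Klf letters GGGTGTGG, and Gm5493 shows the same Klf letters on the other strand. The 4930556L07Rik and Gm33224 sequences held none of the motifs searched. Both strands were searched, no motif printed overlapped another, and a match is a description of letters, not a bound site. The Klf letters were in 17 of the 236 intervals (7.20%) against 2.73% of all 32851 windows, and the AP-1 letters in 24 (10.2%) against 3.72%. For this count each window was trimmed to 201 bases, the length of an interval, and the difference was not tested. The octamer ATTTGCAT was in 7 (2.97%, windows 1.38%), the Esrrb letters CAAGGTCA in 5 (2.12%, windows 1.00%), the Sox letters in 5 (2.12%, windows 2.45%) and the Gata letters AGATAAG in 5 (2.12%, windows 2.06%). The CTCF letters AGGGGGCGC were in 3 (1.27%, windows 1.01%), the Foxh1 letters AATCCACA in 1 (0.424%, windows 0.597%) and the Smad letters GTCTAGAC in 0 (windows 0.107%). The median GC content of the 236 was 53.7%, of the 7 that both treatments called higher it was 57.2%, and of the 15 called lower 53.2%.

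One near-gene interval held a microRNA hairpin and was called in both treatments. It lay at chr1:167290027-167290227, 4.19 kb from Uck2. Its mature product is printed because it was the single one of 18 Ctrl and 22 Paused intervals at hairpins to be called, lower in KO in each table. Of these intervals, 17 in Ctrl and 22 in Paused were tested. Over all near-gene intervals 7.89% and 13.9% were called, so 1 call at hairpins was not above the background. Capitals mark the seed, bases 2 to 8.
mmu-miR-6347: cAGUGCGGcuggcuggagaugc

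In Ctrl the WT libraries held 357, 379.8, 329 and 307 normalized reads at this interval. The Smad2_KO1 libraries held 256, 261, 272 and 301, and the Smad2_KO2 libraries 247, 306, 246 and 306. The lowest WT library was just above the highest KO library. The log2 changes were -0.33 and -0.32 (limma adjusted p = 0.0174 and 0.0238). In Paused the means were 356 in WT and 289 and 299 in the KO lines, the libraries overlapped, and the changes were -0.30 and -0.25 (adjusted p = 0.0136 and 0.0434).

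Values are normalized reads per interval, whole reads divided by 1 factor per library, and the libraries held 11456986 to 20007829 reads in intervals. In Paused, replicate 2 of Smad2_KO1 and replicate 2 of Smad2_KO2 differed by no more than counting noise over the tested intervals (chi-square per degree of freedom 1.001). The other pairs with 1 library from each KO line ran from 1.03 to 1.49, pairs within a line from 1.11 to 1.92 and pairs of KO and WT from 1.82 to 3.58. In Ctrl the pairs across the KO lines ran from 1.02 to 1.53 and those within a line from 1.11 to 1.74, so libraries of both KO lines were close in both tables. Since their labels name different lines, both were used, and counts without either are given below. Among WT libraries, replicates 3 and 4 stood above replicates 1 and 2 by at least 1 on the log2 scale at 125 of the 2505 intervals called lower in Ctrl and at 131 of the 3452 called lower in Paused. Among all tested near-gene intervals this was so at 349 of 74836 and 427 of 70075. This pair of WT libraries was looked at after the values were seen.

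Near-gene intervals were weak compared with those at gene ends. Their median level over 12 libraries was 23.4 normalized reads in Ctrl (quartiles 14.4 and 49.7) and 26.3 in Paused (15.9 and 57.0). Intervals within 1 kb of a gene end had medians of 86.7 and 114, those inside gene bodies 21.0 and 24.2, and intergenic ones beyond 50 kb 20.5 and 22.7. Nearly all intervals are 201 bases wide, so these levels compare equal lengths. A tail was strong: 7887 near-gene intervals in Ctrl (10.5%) and 9062 in Paused (12.9%) reached 100, which made up 24.2% and 24.4% of all intervals at that level. Of the summed values of a Ctrl library, the near-gene class held 24.5% ± 0.52 in WT (SD, n = 4), against 24.6% ± 0.28 in Smad2_KO1 and 24.7% ± 0.14 in Smad2_KO2. In Paused these shares were 24.0% ± 0.61, 24.2% ± 0.075 and 24.2% ± 0.18, within the spread of the WT libraries.

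**Figure D1:**
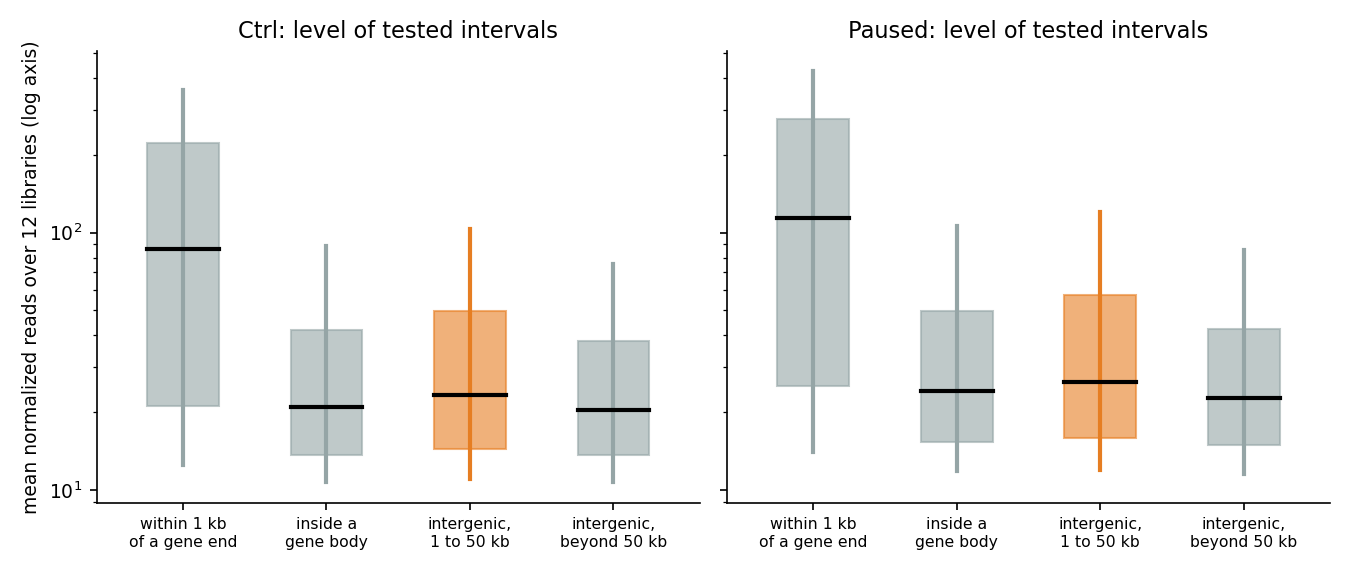
Mean normalized reads over 12 libraries (log axis) of the tested intervals in each position class, Ctrl at left and Paused at right; boxes span the quartiles, lines the 10th to 90th percentile, and black bars are medians. The near-gene intergenic class (orange) had medians of 23.4 and 26.3, far below the 86.7 and 114 of intervals within 1 kb of a gene end.

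Near-gene intervals differed between KO and WT in both directions. An interval was called when limma gave a Benjamini-Hochberg adjusted p under 0.05 over the whole table in both KO lines with the same sign. In Ctrl 3396 near-gene intervals were called higher in KO (4.54%) and 2505 lower (3.35%), where all tested Ctrl intervals gave 3.95% and 3.2%. Under Paused 6278 were higher (8.96%) and 3452 lower (4.93%), where all tested Paused intervals gave 9.01% and 4.92%. In either direction 7.89% and 13.9% of near-gene intervals were called, beside 7.15% and 13.9% of all intervals, so the shares were near the background. The split of calls followed the scaling: 57.5% of the near-gene calls were higher in Ctrl and 64.5% in Paused with the authors' factors, but 40.0% and 40.9% with DESeq2 size factors, 25.4% and 26.4% by DESeq2's own test, 43.5% and 46.2% with loess offsets, 51.5% and 58.7% by edgeR, and 60.0% and 71.0% with library totals. The authors' factors put the median change of all tested intervals at 0.08 in Ctrl and 0.12 in Paused on the log2 scale, and those of near-gene intervals at 0.09 and 0.11.

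Each KO line was also counted alone. Smad2_KO1 had 9461 near-gene calls in Ctrl (12.6%, beside 11.6% of all intervals) and Smad2_KO2 8748 (11.7%, beside 10.7%). In Paused they had 13675 (19.5%, beside 19.4%) and 13475 (19.2%, beside 19.3%). Between the KO lines limma called 0 near-gene intervals in Ctrl and 0 in Paused (0.0% of all intervals in each). At an unadjusted p under 0.05 there were 2448 in Ctrl (3.27%, beside 3.28% of all intervals) and 1410 in Paused (2.01%, beside 1.97%). KO and WT libraries did not overlap at 3875 of the called near-gene intervals in Ctrl and at 6087 in Paused, where 4.67% and 8.68% of all tested intervals were called without overlap.

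Large changes were rarer. A change of at least 1 on the log2 scale in both lines was reached by 649 higher and 578 lower near-gene intervals in Ctrl, where all intervals gave 0.754% and 0.758%. In Paused it was reached by 1306 and 424, where all intervals gave 2.05% and 0.603%. The authors' deposited table, which compares the 8 KO with the 4 WT libraries, had 5645 higher and 4752 lower near-gene intervals at an FDR under 0.05 in Ctrl. Over all Ctrl intervals it had 18583 higher (6.2%) and 17095 lower (5.7%). For Paused the authors' deposited table had 9032 higher and 6351 lower near-gene intervals. Over all Paused intervals it had 33953 higher (12.5%) and 23798 lower (8.74%). The counts depended on single libraries. Without replicate 1 of Smad2_KO1 the Ctrl count of higher intervals was 2234, and without replicate 2 of Smad2_KO2 it was 2171. Leaving out WT replicates 3 and 4 together left 1863 higher and 973 lower in Ctrl. In Paused 6902 calls were made without replicate 2 of Smad2_KO1 and 6862 without replicate 2 of Smad2_KO2.

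The change was smaller or more negative at higher levels, in near-gene and other intervals alike, so changes were also compared at equal level. In Ctrl the median change of near-gene intervals ran from 0.30 in the weakest of 20 level bins to -0.08 in the strongest, and in Paused from 0.42 to -0.18. In the same bins, intervals of the other classes had 0.27 and -0.06 in Ctrl, and 0.45 and -0.15 in Paused. In the strongest bin 9.89% of the 2559 near-gene intervals in Ctrl were called lower, against 4.29% of the other intervals. In Paused it was 29.0% of 2131, against 19.5%. The other intervals pool all other position classes, with gene ends among them, and were not split by class within this bin. After the median of all intervals of the same bin was subtracted, the median change of near-gene intervals was 0.006 in Ctrl and -0.011 in Paused. The other classes, at the level distribution of the near-gene ones, had 4.23% (beyond 50 kb), 2.60% (gene ends) and 3.99% (inside genes) called higher in Ctrl and 4.80%, 2.18% and 3.15% called lower. In Paused the same shares were 8.66%, 7.19% and 9.77% higher and 7.10%, 3.24% and 4.49% lower. In both tables the near-gene share of lower calls therefore sat between that of gene ends and that of distant intergenic intervals, as a description without a test.

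**Figure D2:**
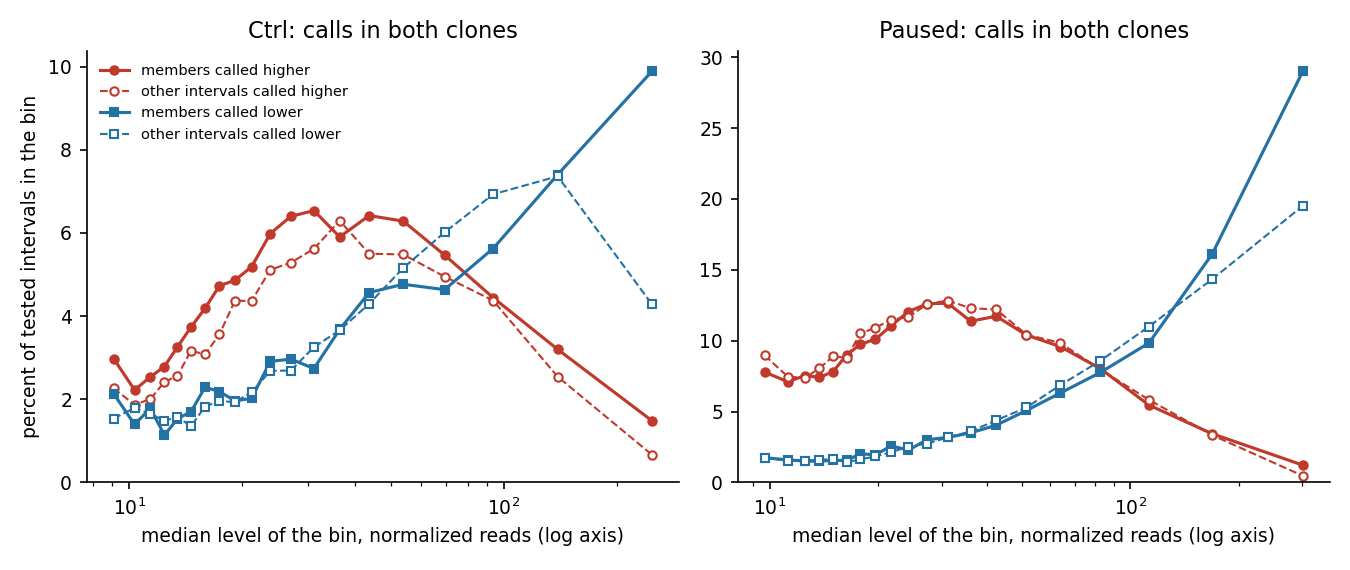
Percent of tested intervals called higher (circles) or lower (squares) in both KO lines, by 20 bins of mean level (log axis, normalized reads); filled symbols are the near-gene intervals ("members") and open symbols all other intervals. In the strongest bin the near-gene intervals were called lower in 9.89% (Ctrl) and 29.0% (Paused), against 4.29% and 19.5% of the others. The others pool all other position classes, with gene ends among them.

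Within the near-gene class the change depended on distance. At equal level the median change in Ctrl was -0.07 at 1 to 2 kb from a gene, -0.03 at 2 to 5 kb, 0.01 at 5 to 10 kb, 0.02 at 10 to 20 kb and 0.03 at 20 to 50 kb. In Paused it was -0.08, -0.05, -0.01, 0.00 and 0.02 in the same bins. The share called higher grew with distance, in Ctrl from 2.27% at 1 to 2 kb to 5.34% at 20 to 50 kb, and in Paused from 5.40% to 10.7%. The share called lower stayed between 2.96% and 3.65% in Ctrl and between 4.78% and 5.15% in Paused. Median levels of the bins lay between 22.4 and 24.1 in Ctrl and between 25.0 and 27.1 in Paused.

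The same step was present in each KO library. The median at 20 to 50 kb minus that at 1 to 2 kb was 0.11 ± 0.02 in Smad2_KO1 and 0.09 ± 0.03 in Smad2_KO2 in Ctrl (SD, n = 4), and the 8 KO libraries ran from 0.06 to 0.13. Each WT library was measured against the mean of the other 3 WT libraries, which centres WT near 0, and they ran from -0.03 to 0.03. All 8 KO libraries were measured against the same WT mean, so their values are not independent of each other. In Paused the step was 0.09 ± 0.02 in both KO lines, with KO libraries from 0.06 to 0.12 and WT libraries from -0.01 to 0.01. KO and WT libraries did not overlap in either table. At the limits of the class in Ctrl, intervals 500 to 1000 bases outside a gene had -0.08 and those at 1000 to 1500 bases -0.08, and those at 45 to 50 kb and 50 to 55 kb had 0.04 and 0.02.

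**Figure D3:**
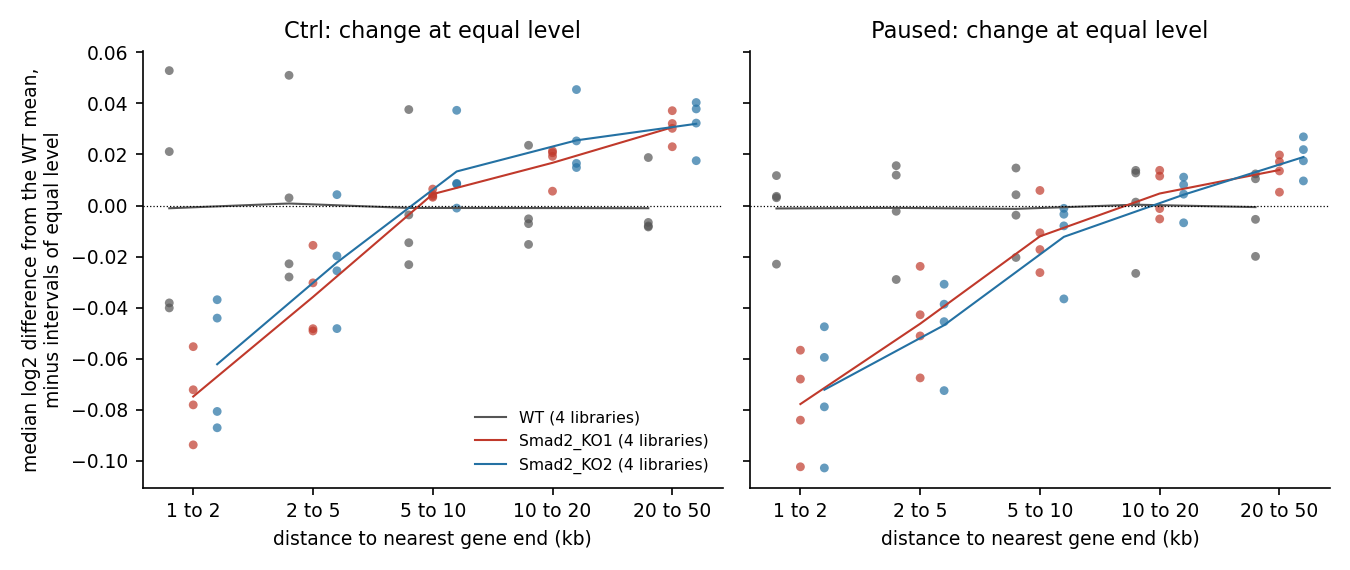
Median log2 difference from the WT mean at equal level, by distance to the nearest gene end (kb); points are libraries and lines the means of 4 libraries of WT (grey), Smad2_KO1 (red) and Smad2_KO2 (blue). KO libraries ran from about -0.07 at 1 to 2 kb to 0.03 (Ctrl) and 0.02 (Paused) at 20 to 50 kb. Each WT library was measured against the mean of the other 3, and WT libraries stayed centred on 0.

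Near Nodal target genes the lower calls outnumbered the higher ones. The list of 11 targets had 83 tested near-gene intervals in Ctrl, of which 12 were called lower and 2 higher (16.9%), and 76 in Paused, of which 13 were lower and 6 higher (25.0%). Over all near-gene intervals 7.89% and 13.9% were called, 3.35% and 4.93% lower. Lower calls led under each scaling tried, with 15, 12 and 14 lower in Ctrl (size factors, library totals, loess offsets) and 19, 12 and 16 in Paused. The median change at equal level was -0.14 in Ctrl and -0.09 in Paused, beside 0.006 and -0.011 over all near-gene intervals. This list and the others below were drawn up with results of these data known.

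The interval of this list with the smallest limma p in each table was at Lefty1, which encodes a secreted inhibitor of Nodal. It lay 10.1 kb from the gene at chr1:180924842-180925042, inside the non-coding gene Gm39715, and was also the near-gene interval with the smallest p in the authors' deposited table for each treatment (log2 Fold -1.18 and -1.45). In Ctrl the WT libraries held 359.9, 355, 395 and 299 normalized reads. The Smad2_KO1 libraries held 133, 114, 154 and 162, and those of Smad2_KO2 152, 160.2, 155 and 184. Every KO library was far below every WT library. The log2 changes were -1.32 (SE 0.11, limma adjusted p = 3.50e-12) and -1.10 (adjusted p = 1.25e-09). In Paused the WT libraries held 478, 485, 449 and 384, and the KO libraries 146, 148, 166 and 145 in Smad2_KO1 and 153, 177, 171 and 180.5 in Smad2_KO2. The groups were again wide apart, with changes of -1.56 and -1.39 (adjusted p = 9.59e-15 and 6.72e-13). Of the near-gene intervals at Lefty1, 3 of 4 were called lower in Ctrl under each scaling. In Paused 1 of 5 was called lower with the authors' factors and with library totals, 2 with size factors and 3 with loess offsets.

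The strongest near-gene interval of the list was at Lefty2, the neighbouring gene for a Nodal inhibitor, 4.32 kb away at chr1:180888687-180888887. It held 585, 543, 559 and 614 in the Ctrl WT libraries, 370.2, 384, 409 and 456 in Smad2_KO1 and 385, 406, 385 and 468 in Smad2_KO2. All KO libraries were below all WT libraries, with log2 changes of -0.51 and -0.49 (adjusted p = 3.86e-05 and 7.33e-05). In Paused the means were 688 ± 64.9 (SD, n = 4) for WT, 450.0 ± 24.1 for Smad2_KO1 and 480.2 ± 61.7 for Smad2_KO2, with changes of -0.61 and -0.52. At Lefty2 2 of 5 near-gene intervals were called lower in Ctrl and 4 of 4 in Paused, and none was called higher under any of the 4 scalings.

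At Nodal, the ligand gene, 2 of 8 near-gene intervals were called lower in each table. The one with the smaller p lay 11.8 kb upstream at chr10:61406037-61406237. In Ctrl it held 79.0, 69.0, 95.3 and 109 in WT, 44.5, 45.2, 29.99 and 41.6 in Smad2_KO1 and 46.1, 52.8, 44.6 and 36.2 in Smad2_KO2. The lowest WT library was above the highest KO library, and the changes were -1.10 and -0.95 (SE 0.16, adjusted p = 7.52e-06 and 8.54e-05). In Paused the WT libraries held 74.5, 66.5, 73.4 and 113, of which 1 stood high, and the KO means were 42.0 ± 3.00 and 44.1 ± 12.2. KO and WT libraries did not overlap there either, and the changes were -0.91 and -0.88 (adjusted p = 2.58e-04 and 3.99e-04).

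Tdgf1, the gene of the Nodal co-receptor Cripto, had its strongest near-gene interval 1.32 kb upstream. In Paused this held 519, 496, 456 and 483 in WT, 353, 353, 352 and 411 in Smad2_KO1 and 345, 330.0, 376 and 412 in Smad2_KO2. All WT libraries were above all KO libraries, with changes of -0.41 and -0.42 (adjusted p = 5.27e-04 and 4.59e-04). None of 5 near-gene intervals at Tdgf1 was called in Ctrl.

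Targets that encode transcription factors went both ways. At Foxa2, a forkhead factor of endoderm and midline, the interval 6.51 kb upstream at chr2:148053380-148053580 held 163, 153, 129 and 141 in Ctrl WT, 95.8, 99.7, 97.5 and 103 in Smad2_KO1 and 86.2, 96.5, 68.0 and 116 in Smad2_KO2. Groups did not overlap, and the changes were -0.56 and -0.69 (adjusted p = 0.00261 and 2.23e-04), though the call was lost without WT replicates 1 and 2. In Paused its means were 124 ± 20.1, 64.7 ± 6.34 and 71.9 ± 8.17, a change of -0.92 and -0.77. At Eomes, a T-box factor of mesendoderm, 3 of 11 were lower in Ctrl and 1 of 10 in Paused.

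Gsc, a homeobox factor of the organizer, went the other way, with 2 of 19 near-gene intervals higher in Ctrl and 5 of 20 in Paused, none lower under any of the 4 scalings. Its interval with the smallest p in Ctrl, 22.9 kb downstream at chr12:104448218-104448418, held 70.5, 57.3, 44.9 and 59.3 in WT, 101, 75.05, 79.7 and 78.5 in Smad2_KO1 and 106, 88.3, 102 and 99.6 in Smad2_KO2. Every KO library was above every WT library, with changes of 0.53 and 0.78 (adjusted p = 0.00944 and 1.56e-04). This call was lost by DESeq2's test and without replicate 1 of Smad2_KO1, replicate 3 of WT or WT replicates 3 and 4 together. The 1 near-gene interval at Mixl1, a homeobox factor of mesendoderm, was higher in Paused and not called in Ctrl. No near-gene interval was called at T or Cer1 in either table.

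**Figure D4:**
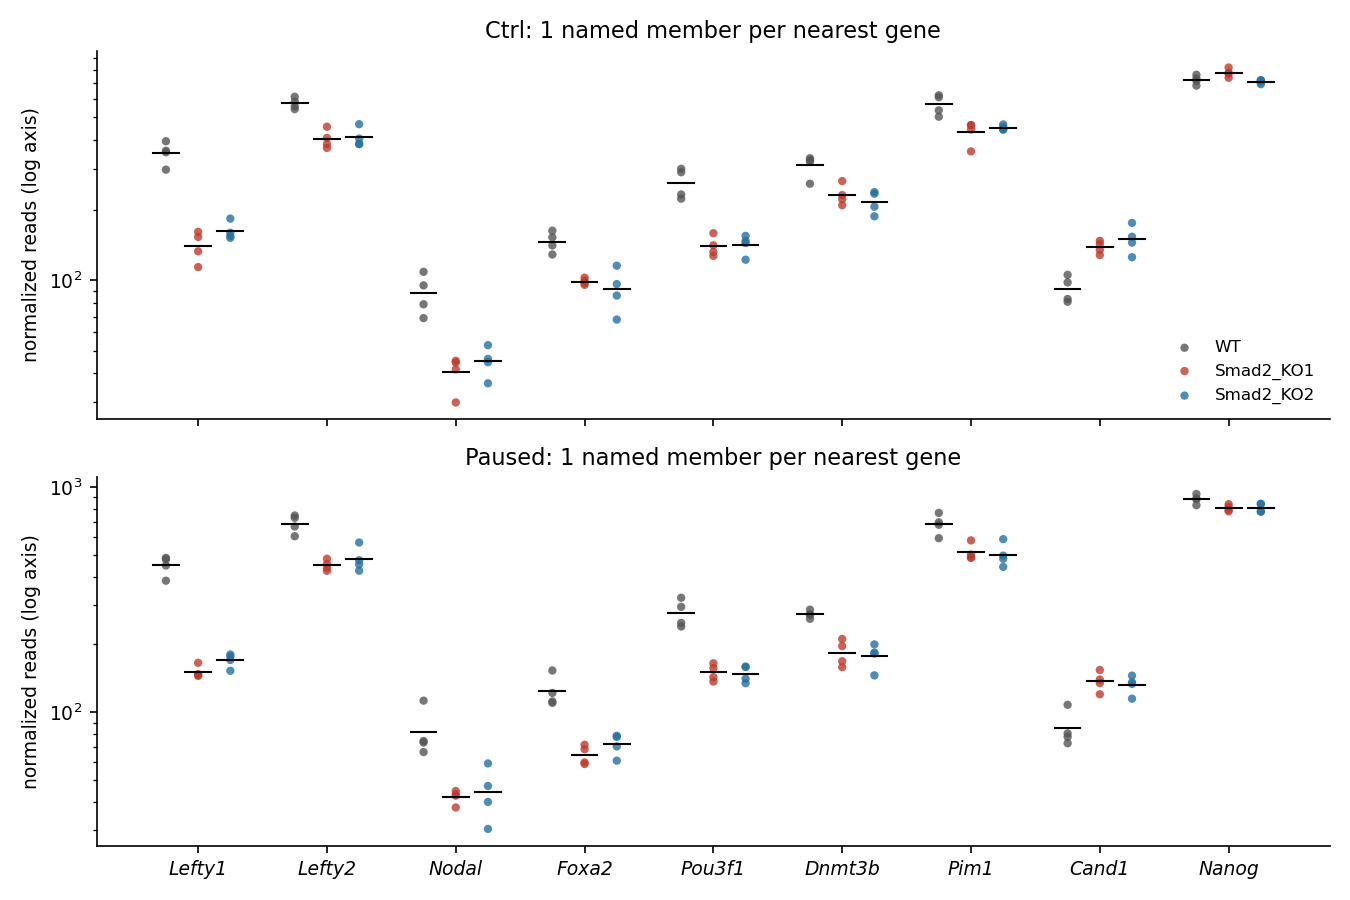
Normalized reads (log axis) of 1 near-gene interval per nearest gene in each library, Ctrl above and Paused below; points are libraries, bars the means of 4. At Lefty1, Lefty2, Nodal, Foxa2, Pou3f1 and Pim1 all 8 KO libraries lay below the 4 WT libraries, at Cand1 above them, at Dnmt3b below them in Paused only, and at Nanog they overlapped.

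The feedback genes of the pathway, which encode inhibitors such as Smad7 and Skil, had 4 lower and 2 higher calls among 108 near-gene intervals in Ctrl and 6 and 1 among 108 in Paused (5.56% and 6.48% called). These shares were below the 7.89% and 13.9% of all near-gene intervals. Lower calls led under each scaling, by 9 to 1, 4 to 3 and 6 to 3 in Ctrl and by 12 to 0, 4 to 2 and 7 to 1 in Paused (size factors, library totals, loess offsets). Of these calls, Smad7 had 2 of 15 in Ctrl and 3 of 20 in Paused, all lower. Its Ctrl interval with the smallest p, 6.30 kb away, held 334, 366, 402 and 371 in WT, 227, 247, 261 and 285 in Smad2_KO1 and 232, 262, 206 and 278 in Smad2_KO2. All KO libraries were below all WT libraries, with changes of -0.53 and -0.60 (adjusted p = 1.75e-04 and 3.40e-05).

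Near genes of naive pluripotency 13 of 248 intervals were higher and 5 lower in Ctrl, and 22 of 244 higher and 8 lower in Paused (7.26% and 12.3% called, beside 7.89% and 13.9% of all near-gene intervals). Higher calls led in Ctrl under each scaling, but in Paused size factors gave 17 higher and 21 lower. Zfp42, the gene of the Rex1 zinc finger protein, had 5 higher and 1 lower of 33 in Ctrl and 3 higher of 36 in Paused. Tbx3, a T-box factor, had 1 each way of 33 in Ctrl and 4 higher of 32 in Paused, which size factors changed to 3 higher and 1 lower. Klf4, a Krüppel-like factor, had 0 of 18 called in Ctrl and 3 of 17 higher in Paused, and 0 of them with loess offsets.

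The strongest interval of this group was not called. The one 4.82 kb upstream of Nanog, a homeobox factor that marks pluripotent cells, lay at chr6:122702574-122702774. It had the highest level of all near-gene intervals in Paused and the next to highest in Ctrl, as a check of the cells' label by accessibility, not expression. In Ctrl it held 735, 717, 762 and 685 in WT, 771, 740.2, 819 and 776 in Smad2_KO1 and 722, 694, 722 and 710.5 in Smad2_KO2. The lines overlapped, with changes of 0.10 and -0.02 (adjusted p = 0.375 and 0.871). In Paused the means were 885 ± 41.4, 808 ± 26.4 and 811 ± 36.7, the lines overlapped, and the adjusted p was 0.151 and 0.169, though it passed with DESeq2 size factors and by DESeq2's test.

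Core pluripotency genes had 1 higher and 3 lower of 54 in Ctrl. In Paused they had 5 higher and 4 lower of 48, where size factors gave 4 higher and 7 lower. The called shares were 7.41% and 18.75%, beside 7.89% and 13.9% of all near-gene intervals. Sox2, a factor that pairs with Oct4, showed both directions. The interval 1.59 kb downstream of it, in the non-coding gene Sox2ot, held 199, 189, 187 and 191 in Ctrl WT, 149.6, 147, 144 and 163 in Smad2_KO1 and 126, 141, 167 and 138 in Smad2_KO2. KO and WT libraries did not overlap, with changes of -0.34 and -0.43 (adjusted p = 0.0277 and 0.00598). That call was lost with loess offsets and without any one of 5 single libraries, WT replicates 1 or 4 or Smad2_KO1 replicates 1, 2 or 3. In Paused the interval 46.9 kb downstream held 24.8, 26.8, 20.5 and 29.1 in WT, 53.2, 52.6, 51.0 and 52.6 in Smad2_KO1 and 53.9, 57.7, 69.6 and 48.1 in Smad2_KO2. Here every KO library was above WT, with changes of 1.03 and 1.15 (adjusted p = 3.17e-05 and 6.94e-06).

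Formative and primed genes, which rise as cells leave the naive state, had 6 higher and 7 lower of 101 in Ctrl. In Paused they had 7 higher and 6 lower of 105. Size factors moved this split to 4 and 12 in Ctrl and to 6 and 12 in Paused. The called shares were 12.9% and 12.4%, beside 7.89% and 13.9% of all near-gene intervals. Pou3f1, the POU factor Oct6, accounted for 4 of the lower calls in Ctrl and 5 in Paused among 20 intervals, with none higher under any of the 4 scalings. Its interval at chr4:124646713-124646913, 10.8 kb away in the non-coding gene Gm2164, held 224, 234, 301 and 291 in Ctrl WT, 133, 127, 142 and 159 in Smad2_KO1 and 155, 145, 148 and 123 in Smad2_KO2. The groups did not overlap, with changes of -0.89 and -0.87 (SE 0.11, adjusted p = 2.67e-07 and 4.41e-07). In Paused its means were 277 ± 38.6, 150.5 ± 12.8 and 148 ± 12.7, with changes of -0.87 and -0.89.

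Dnmt3b, a de novo DNA methyltransferase gene, had its strongest near-gene interval 6.17 kb upstream. It held 334, 323, 329 and 259.9 in Ctrl WT, 210.3, 223, 232 and 267 in Smad2_KO1 and 188, 239, 207 and 235 in Smad2_KO2. WT replicate 4 overlapped the KO libraries, and the changes were -0.41 and -0.52 (adjusted p = 0.00442 and 4.50e-04), lost without WT replicates 1 and 2. In Paused the WT libraries held 272, 286, 260.0 and 271 and stood above all KO libraries, whose means were 184 ± 24.5 and 178 ± 23.0. Otx2, a homeobox factor of the formative state, had only higher calls with the authors' factors, 3 of 24 in Ctrl and 4 of 25 in Paused, and size factors gave 3 higher and 2 lower in Paused.

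Markers of other cell types of the early embryo had few calls in Ctrl, and their shares stand beside 7.89% and 13.9% of all near-gene intervals called in Ctrl and Paused. Primitive endoderm genes had 1 higher and 1 lower of 54 in Ctrl and 5 and 1 of 50 in Paused (3.70% and 12.0% called), and 0 higher and 2 lower in Ctrl with size factors. Trophoblast genes had 2 higher and 3 lower of 98 in Ctrl and 8 and 9 of 100 in Paused (5.10% and 17.0%), and size factors moved the trophoblast counts to 1 and 5 in Ctrl and to 6 and 18 in Paused. Genes of lipid metabolism and the PPAR receptors had 4 higher and 2 lower of 104 in Ctrl and 11 and 3 of 94 in Paused (5.77% and 14.9%), but 4 and 5 in Paused with size factors and 1 and 3 in Ctrl with loess offsets. At Pparg, the nuclear receptor of fat storage named in the series title, 1 of 9 was higher in Ctrl, and 4 were higher and 1 lower of 8 in Paused. With loess offsets the Ctrl calls at Pparg were 0 higher and 1 lower. With size factors the Paused calls at Pparg were 2 higher and 1 lower, and with loess offsets 1 higher and 0 lower.

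The strongest near-gene interval of all lay 15.7 kb from Gtpbp4, a nucleolar GTPase of ribosome assembly, at chr13:9011695-9011895 in the non-coding gene Gm36264. In Ctrl it held 1224, 1102, 835 and 1331 in WT, 963, 1088, 916 and 1052 in Smad2_KO1 and 993, 1066, 841 and 1089.9 in Smad2_KO2. The lines overlapped, and the adjusted p was 0.297 and 0.253, although it passed without WT replicate 3. None of the 5 strongest in Ctrl was called. Of the 5 strongest in Paused 1 was called, near Fblim1, a filamin-binding adaptor, with means of 822 ± 20.4, 725 ± 24.9 and 726 ± 32.6 and adjusted p = 0.0466 and 0.0492. That call was lost by edgeR, with library totals and without any one of 9 single libraries, and with loess offsets the change at Fblim1 was 0.04 in place of -0.18.

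Among called intervals without overlap whose higher group averaged at least 30, the largest changes belonged to weak intervals. The one most raised in KO in Ctrl lay 38.5 kb from Asph, an aspartate hydroxylase gene, and held 12.8, 12.5, 9.86 and 10.8 in WT, 37.6, 45.2, 47.8 and 39.3 in Smad2_KO1 and 49.1, 51.0, 38.2 and 32.2 in Smad2_KO2. All KO libraries exceeded all WT libraries, with changes of 1.80 and 1.79 (adjusted p = 2.01e-08 and 2.51e-08). In Paused it lay 15.9 kb from Sqle, which encodes squalene epoxidase of sterol synthesis, with 9.72, 8.59, 4.32 and 15.9 in WT and means of 34.1 ± 5.42 and 37.7 ± 5.80 in KO. The changes there were 1.83 and 1.97, with no overlap. Both the Asph and the Sqle interval passed the filter on low values only with their KO libraries counted. They were also chosen for the size of the rise, so their calls are a description.

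On the lower side, the Ctrl interval 18.1 kb upstream of Twf1, an actin-binding protein gene, held 25.6, 17.0, 49.3 and 42.1 in WT, 3.42, 4.11, 4.69 and 1.16 in Smad2_KO1 and 5.01, 1.82, 0 and 5.03 in Smad2_KO2. The KO libraries were near 0 and the WT libraries spread widely, with replicates 3 and 4 highest. The fitted changes were -2.97 and -3.33, which depend on the added 1 at such low values. The interval 7.13 kb upstream of Rnf20, a histone H2B ubiquitin ligase gene, held 36.3, 27.8, 49.3 and 35.6 in WT and means of 4.14 ± 0.910 and 5.03 ± 2.07 in KO. In Paused the interval 10.4 kb downstream of Lrrc8b, a volume-regulated anion channel subunit gene, held 36.7, 31.1, 110.0 and 84.8 in WT, again highest in replicates 3 and 4, and means of 10.7 ± 1.26 and 12.5 ± 3.70 in KO. The Twf1 and Rnf20 intervals passed the filter on low values only through their WT libraries and were chosen for the size of the drop, so their calls are a description.

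Calls of 1 direction gathered at some genes. At the genes with the most calls, the neighbouring intervals share their region and are not independent. These genes were chosen for their calls in 1 direction, so the counts and the few opposite calls are descriptions. Over all near-gene intervals 4.54% were called higher and 3.35% lower in Ctrl, and 8.96% and 4.93% in Paused. Cand1, an exchange factor of cullin ubiquitin ligases, had 9 of its 23 near-gene intervals called higher in Ctrl and 11 of 23 in Paused, none lower, over 123 kb and 104 kb. Pkp4, a plakophilin of cell junctions, had 8 and 6 of 13 higher, and Rgs7bp, a binding protein of G-protein regulators, 7 of 16 and 9 of 13. Rnf216 had 7 and 6 of 13 higher and Olfr836, an olfactory receptor gene, 6 of 12 and 9 of 13. No lower call was made at Cand1, Pkp4, Rgs7bp or Olfr836 under the 4 scalings, and 1 at Rnf216 in Paused with size factors. Zfp808 had 7 of 18 higher in Ctrl and 5 of 15 higher and 1 lower in Paused, which size factors made 2 and 2.

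The strongest called interval at Cand1, 24.9 kb upstream at chr10:119264805-119265005, held 83.3, 106, 81.0 and 98.1 in Ctrl WT, 148, 129, 143 and 135 in Smad2_KO1 and 145, 177, 154 and 126 in Smad2_KO2. Every KO library was above every WT library, with changes of 0.59 and 0.70 (adjusted p = 6.44e-04 and 7.29e-05). In Paused its means were 84.7 ± 15.8, 137 ± 14.0 and 132 ± 12.8, with changes of 0.70 and 0.65 and no overlap. The median change over all 23 intervals was 0.73 in Ctrl and 0.69 in Paused, and 1 in each table was below 0.

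Lower calls gathered at Pim1, a serine/threonine kinase gene, with 7 of 22 in Ctrl and 5 of 24 in Paused, where 1 more was higher. Its strongest called interval, 39.4 kb upstream at chr17:29451305-29451505, held 623, 537, 504 and 610.4 in Ctrl WT, 464, 358, 444 and 463 in Smad2_KO1 and 446, 467, 456 and 443 in Smad2_KO2. Every KO library was below every WT library, with changes of -0.40 and -0.32 (adjusted p = 0.00124 and 0.00925), and the call was lost without WT replicates 1 and 2. In Paused its means were 685 ± 72.0, 514 ± 44.8 and 502 ± 61.5. Cdk6, a cell cycle kinase, had 6 and 4 of 13 lower, Klf6, a Krüppel-like factor, 6 of 20 and 3 of 17, and Rap2b, a small GTPase, 6 of 15 and 5 of 10, all with none higher under the 4 scalings. Mycn, a Myc family factor, had 6 of 25 lower in Ctrl and 4 of 23 lower in Paused, with 1 higher there that size factors and loess offsets removed. In Paused 5 lower calls were also made at Cryba4 (of 20), Limch1 (of 7), Sec14l1 (of 17), Socs3 (of 13) and Tcte2 (of 14), of which Socs3 encodes an inhibitor of LIF and cytokine signalling.

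The treatments were compared over 58407 near-gene intervals that matched one to one between the tables with an overlap of at least 50% of each. Of these, 2970 were called higher in Ctrl and 5248 in Paused, and 1625 in both, which is 54.7% of the Ctrl calls and 31.0% of the Paused calls. Lower calls numbered 2120 and 3199 (3.63% and 5.48%, beside 3.48% and 5.55% of all matched intervals), with 1356 in both, 64.0% and 42.4%. No interval was called in opposite directions. Of the Ctrl calls, 98.4% of the higher and 96.8% of the lower ones had the same sign in Paused. The KO against WT comparisons of the tables use separate libraries. Neither the overlap nor the shared sign was counted over all matched intervals, so neither is shown to be particular to near-gene intervals. For higher calls the share of all matched intervals was not counted either. Over tested intervals, matched or not, higher calls were 4.54% of near-gene and 3.95% of all intervals in Ctrl. In Paused they were 8.96% and 9.01%.

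The 6 printed sequences showed these calls by library. At the Gm41048 interval with its AP-1 and Sox letters, the WT libraries held 86.5, 83.3, 74.5 and 67.9 in Ctrl, those of Smad2_KO1 111, 102, 133 and 114 and those of Smad2_KO2 119, 107, 132 and 116. Every KO library was above every WT library, with changes of 0.55 and 0.60 (adjusted p = 0.00208 and 9.24e-04), and in Paused of 0.44 and 0.42. The 4930556L07Rik interval had means of 79.3 in WT, 118 and 112 in KO in Ctrl, and 182, 243 and 246 in Paused. At 2500002B13Rik the means were 56.9, 79.6 and 76.9 in Ctrl and 61.9, 85.9 and 81.4 in Paused.

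Among the lower ones, the Gm52714 interval held 217, 213, 179.6 and 210.3 in Ctrl WT, 151, 123, 139.6 and 141 in Smad2_KO1 and 129, 128, 110.5 and 144 in Smad2_KO2. In Paused the WT libraries held 315, 238, 220.1 and 261, and the KO libraries 155, 130.5, 141 and 148 in Smad2_KO1 and 129.8, 146, 143 and 197 in Smad2_KO2. The changes were -0.56 and -0.68 in Ctrl and -0.83 and -0.75 in Paused (adjusted p = 3.15e-06 and 1.80e-05), with no overlap. The Gm33224 interval had means of 221, 174 and 165 in Ctrl and 151, 113 and 110.0 in Paused. At Gm5493 they were 185, 139 and 138, then 212, 158 and 163. Among the printed sequences, the Klf letters thus stood in 1 interval that was higher and 2 that were lower in KO.

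Pausing in wild type was described from the same matched intervals. The tables were normalized separately, so the difference, log2(Paused + 1) minus log2(Ctrl + 1) of the WT means, was centred on the median of all 215826 matched intervals, from which 0.085 was subtracted, and it carries no test. Near-gene intervals had a median of -0.01 (quartiles -0.29 and 0.24), and -0.01 at equal level. Intervals at gene ends had 0.17 (0.04 at equal level), those inside genes -0.001 (0.01) and intergenic ones beyond 50 kb -0.10 (-0.06). The 4 Paused WT libraries gave -0.028, -0.002, 0.005 and -0.012 for the near-gene class, and the 4 Ctrl WT libraries, against their mean, -0.016, -0.014, 0.032 and -0.008. The near-gene median therefore lay within the spread of the WT libraries. In the KO lines it was -0.02 in both.

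By level, the pausing difference of near-gene intervals ran from -0.15 in the weakest of 20 bins to 0.16 in the strongest, and that of other intervals from -0.18 to 0.19. Distance mattered little, from 0.02 at 1 to 2 kb to -0.02 at 20 to 50 kb. A difference of at least 1 with no overlap between the 4 Ctrl and 4 Paused WT libraries was found for 808 near-gene intervals that were higher in Paused (1.38%) and 770 that were lower (1.32%), where all matched intervals gave 1.26% and 1.34%. Of these, 581 and 423 had a mean of at least 30 in the higher group.

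The highest difference was 1.60 kb from Hlcs, which encodes the enzyme that attaches biotin to carboxylases, at chr16:94316740-94316940. Ctrl WT libraries held 11.8, 7.17, 8.76 and 9.71, and Paused WT libraries 48.6, 51.5, 60.4 and 54.3. Every Paused library was far above every Ctrl library, a difference of 2.32, and it was 1.75 and 1.77 in the KO lines. Differences of 2.27 and 2.20 were found 29.9 kb from Prex1, an activator of the GTPase Rac, and near Elfn1. At Prex1 the WT means were 16.7 ± 4.79 and 89.5 ± 20.4, and the interval was called higher in KO in Ctrl.

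The lowest difference was 2.55 kb from Tfr2, a transferrin receptor gene, at chr5:137590529-137590729. Ctrl WT libraries held 60.9, 60.0, 52.6 and 63.6, and Paused WT libraries 11.9, 7.51, 9.71 and 13.2. The libraries did not overlap, and the difference was -2.46 in WT and -1.89 and -1.84 in the KO lines. The next lowest, of -2.20 and -2.13, were both at tRNA genes on chromosome 13.

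Of the genes on the lists, 13 of 631 matched near-gene intervals passed the same rule in either direction (2.06%), beside 2.70% of all matched near-gene intervals and 2.59% of all matched intervals. The share at list genes was thus not above the background, and the intervals named here are descriptions. Tbx3 had 3 of them, all higher in Paused. The one 10.4 kb away held 41.7, 30.4, 36.1 and 32.4 in Ctrl WT and 138, 99.8, 66.9 and 90.05 in Paused WT, a difference of 1.38 that was 0.75 and 0.73 in KO. Tfap2c, an AP-2 factor of trophoblast and germ cells, had 2, of which the stronger went from 116 ± 14.8 to 298 ± 50.9 (1.27, and 1.20 and 1.13 in KO). Pou3f1 had 1.34 and Nr0b1, the orphan receptor Dax1, 1.02. At Eomes the interval 6.68 kb away, which was also lower in KO in Ctrl, held 63.0, 44.8, 70.1 and 83.0 in Ctrl WT and 30.2, 26.8, 23.7 and 29.1 in Paused WT. Its difference was -1.30 in WT, and -0.69 and -0.41 in the KO lines. Klf4 and Skil had differences of -1.08 and -1.07. List medians at equal level ran from -0.09 (formative and primed) to 0.16 (primitive endoderm).

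Intervals at tRNA genes were frequent among the lowest differences, and were examined after those values were seen. Transfer RNA genes are short genes read by RNA polymerase III, which mTOR signalling is known to stimulate. Of 408 annotated tRNA genes, those that overlapped near-gene intervals involved 82 intervals in Ctrl and 65 in Paused, with median levels of 161 and 102, and 51 were matched. Their median WT level was 193 in Ctrl and 119 in Paused. The median pausing difference of the 51 was -0.62 (quartiles -1.18 and -0.19), and -0.74 at equal level, beside -0.01 over all near-gene intervals. It was below 0 at 46 of 51, and 16 (31.4%) passed the rule as lower and 0 as higher, where all matched intervals gave 1.34% and 1.26%.

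It was of the same sign in each Paused WT library, -0.57, -0.69, -0.77 and -0.63, while the Ctrl WT libraries ran from -0.07 to 0.05 about their mean. In the KO lines it was -0.75 and -0.76, below 0 at 44 and 48 of 51. Of the 51, 34 lay on chromosome 13, with a median of -0.80 and 33 below 0, and 17 on other chromosomes, with -0.32 and 13 below 0. The 151 near-gene intervals in the same stretch of chromosome 13 without a tRNA gene had -0.18. The 11 matched intervals at tRNA genes in other position classes had medians of -0.07 (gene ends, 5), -0.42 (inside genes, 4) and -0.25 (beyond 50 kb, 2). In KO against WT 1 of the 51 was called lower in Ctrl, 6 in Paused and 0 higher in either. Of all matched near-gene intervals 3.63% and 5.48% were called lower, but the 51 are strong and lower calls rose with level. Near-gene intervals in the Ctrl bins of median level 139 and 248 had 7.40% and 9.89% called lower. In the Paused bins of median level 113 and 169 it was 9.83% and 16.1%. The calls at tRNA genes were not compared at equal level.

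Single tRNA genes ranged widely. At the leucine tRNA gene n-TLtaa2, 10.5 kb from H4bc24, Ctrl WT libraries held 75.8, 85.1, 83.2 and 74.4 and Paused WT libraries 19.4, 15.0, 16.2 and 19.9. At the serine tRNA gene n-TSgct8, 5.40 kb from Pom121l2, they held 164, 175, 137 and 175 and 31.3, 50.5, 36.7 and 35.8. Both sets were wide apart, and the KO lines had -2.07 and -2.31 at the first and -2.45 and -2.10 at the second. At n-TNgtt14, an asparagine tRNA gene 13.7 kb from Uspl1, they held 633, 494, 395 and 559 and 718, 537, 455 and 648, which overlap, a difference of 0.09. The phenylalanine tRNA gene n-TFgaa4 near Trim27 had the highest difference, 0.31. Transfer RNA genes have near-identical copies, and how reads that fit several copies were placed is not given in the sources used here, so values of single copies are uncertain.

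**Figure D5:**
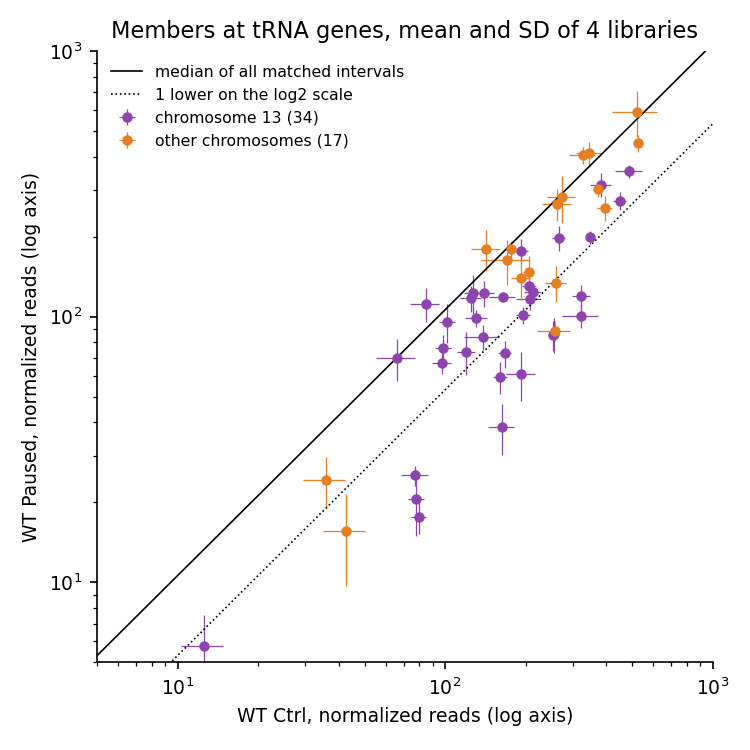
WT Paused against WT Ctrl normalized reads (both log axes) at the 51 matched near-gene intervals that overlap tRNA genes; points are means and bars SDs of 4 libraries. The solid line is the median of all matched intervals and the dotted line lies 1 below it on the log2 scale; 46 of 51 points fall below the solid line, and 33 of the 34 on chromosome 13 (purple).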

How the data were processed

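ATAC-seq libraries of 6 groups (WT, Smad2_KO1 and Smad2_KO2, each Ctrl and Paused, 4 replicates) came as 1 table per treatment. Per the submitters' processing notes, the authors used FastQC, Trim Galore, Bowtie2 2.4.1, MACS3 3.0.3 and DiffBind 3.16.0 with build mm10; which tool did which step, the read shift and the handling of duplicates are not given in the sources used here. The deposited library values are signal: reads divided by 1 factor per library, with at least 98.75% of each column's values on a ladder of whole reads, so reads and depth were recovered. The authors' deposited table also holds a log2 fold change (Fold) and a p-value and FDR of KO against WT.

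Positions were taken against 21887 protein-coding genes of RefSeq GRCm38.p6, of which 17492 had a strand. Intervals with a value of 10 or more in at least 4 libraries were tested with limma 3.58.1 (R 4.3.3; eBayes with trend) on log2(value + 1), all 12 libraries of a table in 1 fit with line as the factor, Benjamini-Hochberg adjusted over the table; such changes understate those of low intervals. A called interval passed 0.05 in both KO lines with the same sign. Changes at equal level subtract the median of all intervals in the same of 20 level bins. Tables were matched with bedtools 2.31.1, one to one, at an overlap of at least 50% of each interval. The limma fit was also run on counts simulated with the same dispersion at every interval, with results not reported here. The simulated counts held no fall of the change with level and no differences between WT replicates. They therefore do not check the real calls for these. As alternatives, reads were tested with edgeR 4.0.16 (quasi-likelihood) and DESeq2 1.42.0 (Wald), and limma was rerun with DESeq2's size factors, loess offsets, totals per library, pseudocount 0.1, no filter, a replicate block and leaving out each library. Intervals, genes and lists were chosen with earlier results of these data known. The rule named the 5 strongest intervals per table, the 5 higher and 5 lower with the largest change, no overlap and a higher group of at least 30, the 3 genes with most calls each way with ties, the 3 largest pausing differences each way, and for list genes the strongest interval; list intervals with the smallest p and those at tRNA genes were chosen after values were seen. Values of some listed genes are not reported here.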

Additional observations from a re-analysis of the deposited data

Results flagged for a closer look

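Of 146 groups of 4 libraries looked at for a single library far from the other 3 (Dixon's test at the 95% level), 5 stood out; chance alone marks about 1 group in 20. At the Lefty1 interval in Paused, Smad2_KO1 replicate 3 had 165.85 normalized reads beside 146, 148 and 145 in the others, still far below WT. At Tdgf1 in Paused, Smad2_KO1 replicate 4 had 411.19 beside 353, 353 and 352. At Dnmt3b in Ctrl, WT replicate 4 had 259.9 beside 334, 323 and 329, which is the library that made WT and KO overlap there. At Lrrc8b in Paused, Smad2_KO2 replicate 2 had 18.0 beside 11.0, 11.2 and 9.85. At the 2500002B13Rik interval in Ctrl, Smad2_KO2 replicate 1 had 90.19 beside 73.7, 72.2 and 71.5.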

How the results depend on the processing

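Counts of near-gene calls in both lines were 5901 in Ctrl and 9730 in Paused. Requiring a log2 change of at least 1 left 1227 (649 higher, 578 lower) and 1730 (1306, 424), fewer by construction. Limits of 2 to 25 kb left 1644 lower in Ctrl. DESeq2's test gave 3320 (844 higher) and 5965 (1574 higher). Size factors gave 4150 higher and 6008 lower in Paused, and loess offsets 3183 higher. With no filter the Ctrl median level was 21.8. Recovered reads as a share of matched reads put the WT pausing median at -0.10. Unlike the main value, this one was not centred on the median of all matched intervals, so they do not compare directly. The cause of the other shifts was not tested.

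Leaving out 1 library gave 4073 to 6206 calls in Ctrl (2171 to 3553 higher, 1726 to 2653 lower) and 6862 to 10232 in Paused (4251 to 6988 higher, 2496 to 3749 lower). The equal-level median ran from 0.00205 to 0.016 and from -0.017 to -0.006, the step from 1 to 2 kb to 20 to 50 kb from 0.094 to 0.119 and from 0.093 to 0.110, the pausing median from -0.018 to -0.004 and that at tRNA genes from -0.66 to -0.57. The replicate block gave 6563 calls in Ctrl (3854 higher, 2709 lower), 11249 in Paused (7228, 4021) and pausing medians of -0.01 and, at tRNA genes, -0.62; same-numbered libraries correlated from -0.018 to 0.194 in their deviations, so the numbers were not taken to pair samples.

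Alternatives chosen after seeing the data averaged the KO libraries of each number, which gave 10138 in Ctrl (5790 higher, 4348 lower), and left out WT replicates 3 and 4, which gave 2836 in Ctrl (1863, 973). At tRNA genes an overlap of 90% gave -0.53, Smad2_KO1 -0.75 and Smad2_KO2 -0.76. Over 23 settings, 102 named Ctrl intervals, called or not, kept their side of the threshold in 2172 of 2346 cases, lost a call in 153 and gained one in 21, and 118 Paused intervals in 2360 of 2714, 287 and 66; the 1 reversal was Fblim1, 0.037 with loess offsets. The median near-gene interval held 23.4 normalized reads in Ctrl and 26.3 in Paused; how depth bears on the calls was not tested.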

Other observations

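Near-gene intervals on the X chromosome had lower changes in KO than those on most autosomes: at equal level their median was -0.05 in Ctrl (2014 intervals) and -0.10 in Paused (1804), with 2.53% and 5.54% called higher. Those on chromosome 6, which carries Nanog, Dppa3 and Pparg, had the highest medians of the chromosomes, 0.06 (4403 intervals) and 0.05 (4062), with 6.27% and 11.9% called higher and 2.54% and 3.79% lower. Chromosome 19 had -0.03 and -0.06. These are descriptions across intervals of the same libraries and were not tested.

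Intervals that overlapped the start window of a non-coding gene had medians of 43.3 normalized reads in Ctrl (827 intervals) and 50.8 in Paused (831). They were stronger than near-gene intervals where no non-coding gene was annotated, with 23.1 and 25.9. In Paused 9.51% of them were called lower in KO, beside 4.86% of intervals without a non-coding gene, and 9.03% higher beside 8.94%. In Ctrl the shares were 3.75% lower and 5.08% higher, beside 3.27% and 4.55%. At equal level their median changes were -0.02 in Ctrl and -0.006 in Paused, beside 0.008 and -0.011 without a non-coding gene, and calls of lower intervals were more frequent at high levels in all near-gene intervals. Intervals upstream and downstream of the nearest gene had equal-level medians of 0.01 and 0.00 in Ctrl and -0.01 and -0.01 in Paused.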
